A study of Homo sapiens with 9 samples.

Results

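The genes of cornification and late keratinocyte differentiation were followed in parental HaCaT cells and in HaCaT cells that express WT-actin or NLS-actin. They were chosen by name, as 43 genes of suprabasal keratins, the cornified envelope, epidermal proteases and lipid enzymes and their regulators, and no threshold on a measured value was applied. Of these, 42 had a probe set annotated to that gene alone, out of 19775 such genes on the array, and the protease inhibitor gene SPINK5 was not analysed here. HaCaT cells are human keratinocytes that became immortal spontaneously in culture, and the parental cells were not transfected. WT-actin cells stably carried a GFP fusion of wild-type β-actin, and NLS-actin cells carried the same fusion with a nuclear localization sequence, which drives actin into the nucleus. Plasmid-transfected cells were selected for drug resistance and GFP as a population, so that each construct is represented by 1 population, and what belongs to the construct and what to the population cannot be told apart. RNA of 3 arrays per line was measured, and whether the arrays of a line came from separate cultures was not stated, so that the p-values measure the spread between these arrays, which may be technical.

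Keratinocytes that leave the basal layer of the epidermis switch from the basal keratins to KRT1 and KRT10 and then assemble a cornified envelope beneath the plasma membrane. Involucrin, periplakin, envoplakin and the small proline-rich proteins are crosslinked into this envelope by transglutaminases, lipoxygenases and lipid transporters supply the lipids of the barrier, and kallikrein proteases cut the corneodesmosomes so that dead cells can be shed. SPINK5 encodes the inhibitor of these kallikreins, and cystatins restrain the cysteine proteases. In RNA of a whole culture, fewer differentiating cells and less RNA per cell cannot be told apart.

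The deposited values were MAS5 signals, which are linear intensities scaled by the authors to a trimmed mean of 500.04 to 500.06 on every array, and they were compared on the log2 scale with limma. A gene was called at an adjusted p under 0.05 over all genes. Of the 42 genes, 22 had a mean level at or above the median of all genes, a signal of 146, and 20 lay under it. Replicate 2 of the parental cells, replicate 1 of the WT-actin cells and replicate 2 of the NLS-actin cells stood apart from the other arrays of their lines, and they also had the highest ratio of the 3' to the 5' ACTB control probe set in their line (7.96, 14.9 and 12.8, against 3.82 to 7.98 on the other 6 arrays), a measure that rises with RNA degradation. Calls that rest on these arrays are given with and without them. The actin lines also carried a β-actin construct, and its part in the ACTB ratio, and in fits with this ratio as a covariate, was not tested.

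The calls fell in the comparison between the actin lines. In NLS-actin against WT-actin cells, 4 of the 42 genes were higher, namely MAL, SPRR1B, KLK13 and KLK10, and 1, the cystatin gene CST6, was lower at an adjusted p under 0.05 in limma. These 5 genes were set against 0.728% of all genes called in that comparison (0.389% higher and 0.339% lower). At an unadjusted p under 0.05, 15 of the 42 differed, against 9.47% of all genes, 13 of them higher (5.39%) and 2 lower (4.09%). The arrays of 12 did not overlap between the lines, against 13.9%. The median log2 fold change of the 42 genes was 0.55, beside 0.03 for all genes, and 31 values were positive. The median was 0.28 without NLS-actin replicate 2 and also without WT-actin replicate 3. Without the 3 arrays that stood apart, 4 genes were called, CST6, MAL, KRT1 and TGM1, against 0.809% of all genes. With parental and NLS-actin arrays of the same replicate number treated as pairs, 7 were called, the 5 above with KRT1 and SPRR1A, against 1.03%. Tukey's test gave 6 genes at an unadjusted p under 0.05 (5.27% of all genes) and 0 after adjustment (0.086%). Its unadjusted p, unlike that of limma, already allows for the 3 pairs of lines.

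Against the parental line, no gene of the 42 was called in limma for either construct. In NLS-actin cells 26 genes in all were called (0.131%), and of the 42, 9 had an unadjusted p under 0.05 (6.44% of all genes), 8 of them higher (2.48%) and 1 lower (3.96%). Tukey's test gave 1 of the 42 at an unadjusted p under 0.05 (3.7% of all genes) and 0 after adjustment (0.0202%), and 0 were called without the 3 arrays that stood apart (0.121%). The arrays of 9 genes did not overlap with the parental ones (13.9% of all genes), and the median log2 fold change was 0.17, beside -0.01 for all genes. It was -0.01 without NLS-actin replicate 2. In WT-actin cells 33 genes in all were called (0.167%), and of the 42, 8 had an unadjusted p under 0.05 (6.69% of all genes), 2 of them higher (2.49%) and 6 lower (4.2%). Tukey's test gave 4 at an unadjusted p under 0.05 (3.74%) and 0 after adjustment (0.0405%). Without the 3 arrays that stood apart 1, CST6, was called (0.207%). The arrays of 8 genes did not overlap (12.3% of all genes), and the median was -0.32, beside -0.06 for all genes. It was -0.09 without parental replicate 2 and -0.17 without WT-actin replicate 3, and it was -0.57 without WT-actin replicate 1 and -0.54 without parental replicate 3. The 3 comparisons share their arrays, so that a low WT-actin value enters both the comparison with the parental line and that with NLS-actin cells.

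**Figure D1:**
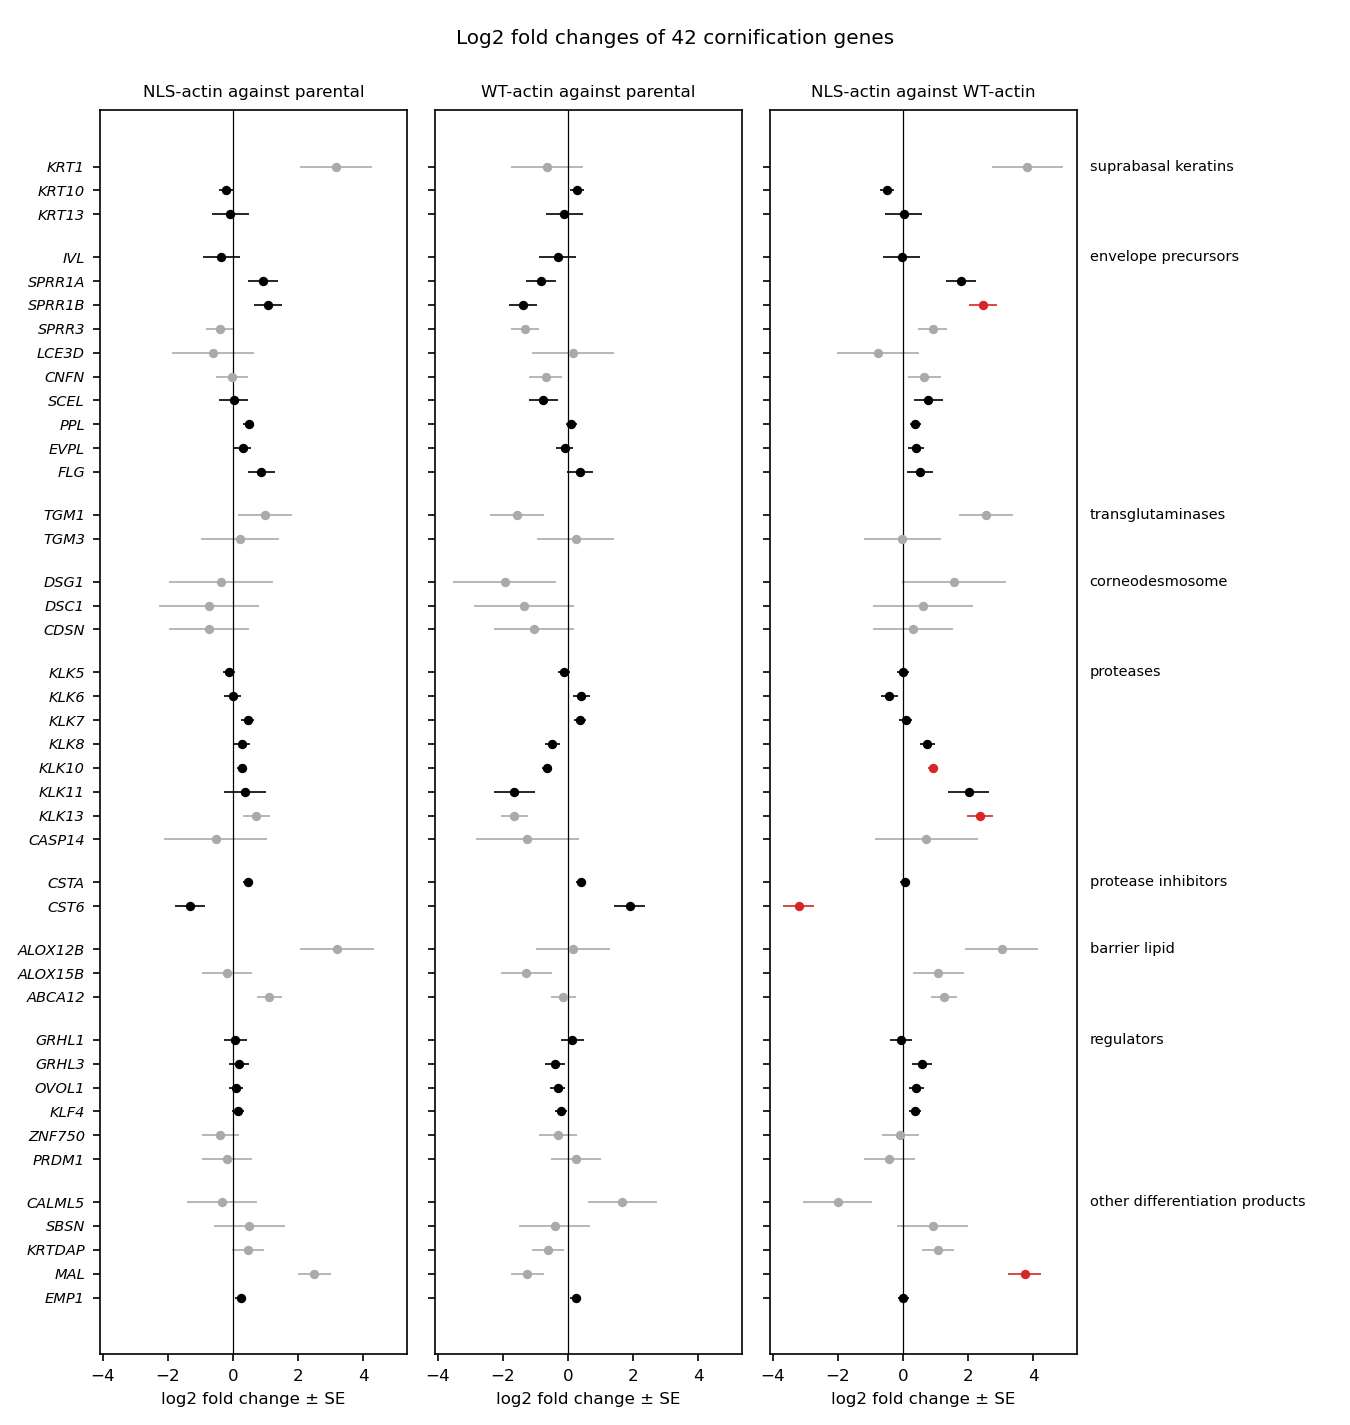
Log2 fold changes (x axis, shared scale) of the 42 genes in the 3 comparisons, grouped by role. Points are limma estimates from 3 arrays per line and bars are standard errors. Red marks an adjusted p under 0.05, black other genes at or above the median level and grey other genes under it. The 5 red points all lie in the right panel, and 31 of its 42 points lie above 0.

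MAL, a lipid raft protein of apical transport in epithelial cells, showed the highest log2 fold change of the 4 called higher genes. Its signal was 70.7, 121 and 60.9 on the parental arrays, 25.2, 42.0 and 36.4 on the WT-actin arrays and 307, 1096 and 274 on the NLS-actin arrays. All NLS-actin arrays lay above all parental arrays, which in turn lay above all WT-actin arrays. The difference between the actin lines was 3.74 on the log2 scale, or 13.4 fold (standard error 0.51, adjusted p = 0.00423 from limma), and it was 2.89 without the 3 arrays that stood apart (adjusted p = 0.00367 from limma). Against the parental line the log2 fold change was 2.49 (standard error 0.51, adjusted p = 0.128 from limma), and this value was called when parental and NLS-actin arrays of the same replicate number were treated as pairs in the fit (adjusted p = 0.0251 from limma, 0.137% of all genes), which is referred to as the paired fit. The value of WT-actin against parental cells was -1.25 (adjusted p = 0.677 from limma).

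CST6 encodes cystatin M/E, an inhibitor of the cathepsins and legumain that process transglutaminase 3 in the upper epidermis. It was the only gene of the 42 that was called lower in NLS-actin cells. Its signal was 261, 129 and 183 on the parental arrays, 382, 658 and 1245 on the WT-actin arrays and 94.2, 41.1 and 105 on the NLS-actin arrays. The order of the lines was thus the reverse of that of MAL, again with no overlap between any pair of lines. NLS-actin cells had a 9.18-fold lower signal than WT-actin cells, or -3.20 on the log2 scale (standard error 0.47, adjusted p = 0.00689 from limma), and the value was -3.19 without the 3 arrays that stood apart. Against the parental line, the log2 fold change was 1.89 in WT-actin cells (standard error 0.47, adjusted p = 0.264 from limma). In NLS-actin cells it was -1.31 (adjusted p = 0.581 from limma). The WT-actin value was called without the 3 arrays (2.05, adjusted p = 0.0344 from limma) and with the ACTB ratio as a covariate (2.10, adjusted p = 0.00168 from limma). A second, dimmer probe set of CST6 gave -1.69 between the actin lines and, with the opposite sign, -0.83 for WT-actin against parental cells.

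**Figure D2:**
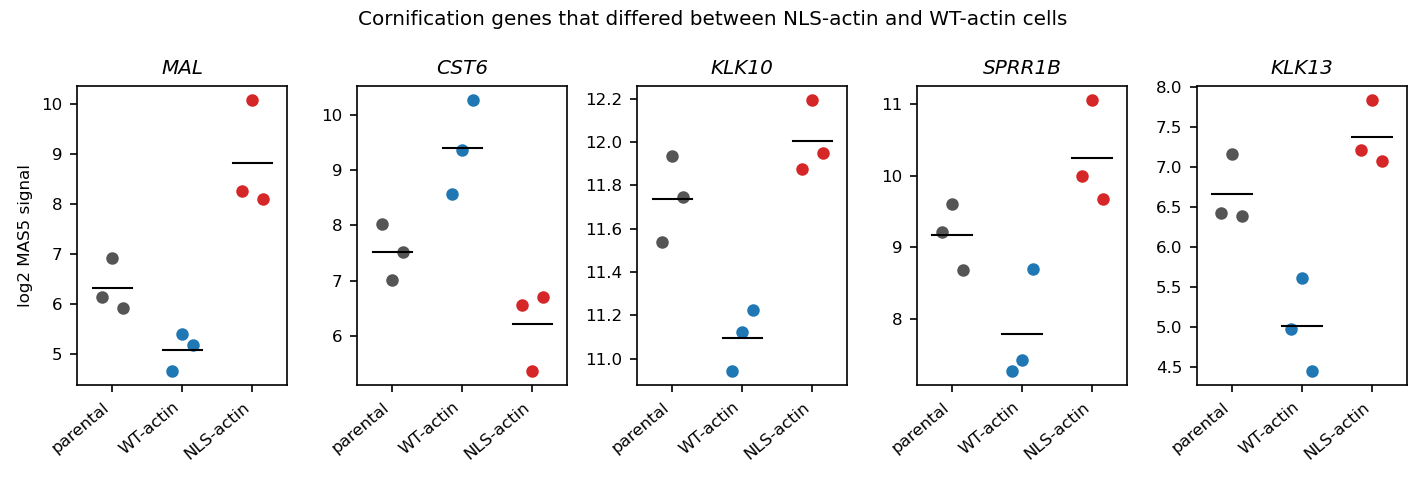
Log2 MAS5 signal (y axis, a separate scale for each gene) of the 5 genes called between NLS-actin and WT-actin cells. Each point is 1 array, in the order of replicates 1 to 3, and the black lines are the means of 3 arrays. The 3 lines do not overlap for MAL and CST6, and the NLS-actin arrays of KLK10, SPRR1B and KLK13 lie above all their WT-actin arrays.

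Among the 10 envelope precursors measured, SPRR1B was the gene called between the actin lines, and 8 of the 10 had a positive log2 fold change there (median 0.58). SPRR1B encodes a small proline-rich protein that bridges other envelope proteins. Its signal was 596, 779 and 412 on the parental arrays, 154, 171 and 414 on the WT-actin arrays and 1025, 2141 and 818 on the NLS-actin arrays. The NLS-actin arrays were all above those of both other lines, whereas WT-actin replicate 3 reached the lowest parental array. The log2 fold change was 2.45 between the actin lines (5.47 fold, standard error 0.42, adjusted p = 0.0186 from limma). The call was lost without the 3 arrays that stood apart (1.78, adjusted p = 0.0542) and without NLS-actin replicate 1, WT-actin replicate 1 or WT-actin replicate 2 (adjusted p = 0.0569, 0.0614 and 0.105 from limma). Against the parental line, the log2 fold change was 1.08 in NLS-actin cells (unadjusted p = 0.0246, adjusted p = 0.66 from limma). It was -1.37 in WT-actin cells (unadjusted p = 0.00661, adjusted p = 0.47 from limma).

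SPRR1A lies on chromosome 1, as SPRR1B does, and encodes a protein of the same kind. SPRR1A gave signals of 272, 547 and 248 on the parental arrays, 210, 141 and 217 on the WT-actin arrays and 502, 1429 and 353 on the NLS-actin arrays. The WT-actin arrays lay below all others, and NLS-actin replicate 3 lay below parental replicate 2. The difference between the actin lines was 1.77 (standard error 0.46, adjusted p = 0.148 from limma), and it was called in the paired fit (adjusted p = 0.00697 from limma). Its second probe set gave 1.97. The representative probe set carries the suffix of sets whose probes can bind related transcripts, so that SPRR1A and other genes of the family may share signal on it. SPRR3, another member of the family, had signals of 183, 83.8 and 63.6 on the parental arrays, 37.8, 31.2 and 54.0 on the WT-actin arrays and 79.2, 70.3 and 75.9 on the NLS-actin arrays. Its WT-actin arrays lay below all others, with a log2 fold change of -1.31 against the parental line (unadjusted p = 0.011, adjusted p = 0.558 from limma). The probe set of SPRR3 carries the same suffix. A second, dimmer one gave -1.93, with arrays that overlapped. For NLS-actin against parental cells it gave 0.78, where the representative gave -0.40.

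The start regions of SPRR1A, SPRR1B and MAL are shown because SPRR1B and MAL were called higher in NLS-actin than in WT-actin cells and SPRR1A is a paralog of SPRR1B. KLK10 and KLK13 were also called higher, and their start regions are not shown. Each window runs from 250 bases before to 50 bases after the gene start in RefSeq (GRCh38.p14), 5′ to 3′, with capitals marking the AP-1 motif TGANTCA, the letters bound by the Fos and Jun factors.
SPRR1A, chr1:152983831-152984130, plus strand: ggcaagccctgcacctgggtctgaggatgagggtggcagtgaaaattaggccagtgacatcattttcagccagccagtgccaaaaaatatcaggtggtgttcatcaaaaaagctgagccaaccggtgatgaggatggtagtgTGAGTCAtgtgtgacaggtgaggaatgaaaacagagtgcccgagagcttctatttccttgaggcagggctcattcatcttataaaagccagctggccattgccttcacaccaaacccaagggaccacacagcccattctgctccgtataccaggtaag
SPRR1B, chr1:153030953-153031252, plus strand: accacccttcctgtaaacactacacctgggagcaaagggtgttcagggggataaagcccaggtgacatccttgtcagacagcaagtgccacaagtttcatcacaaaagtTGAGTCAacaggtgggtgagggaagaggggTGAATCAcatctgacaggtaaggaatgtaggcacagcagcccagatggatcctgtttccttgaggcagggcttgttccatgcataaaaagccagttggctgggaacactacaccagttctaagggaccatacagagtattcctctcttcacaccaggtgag
MAL, chr2:95025458-95025757, plus strand: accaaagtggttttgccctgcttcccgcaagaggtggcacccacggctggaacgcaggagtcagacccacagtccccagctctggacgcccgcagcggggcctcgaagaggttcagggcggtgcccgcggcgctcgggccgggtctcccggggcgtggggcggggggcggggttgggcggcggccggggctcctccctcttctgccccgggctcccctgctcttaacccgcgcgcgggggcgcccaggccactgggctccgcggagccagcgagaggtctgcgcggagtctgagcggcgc
The SPRR1A window held 1 AP-1 motif, which began 108 bases before the start, and the SPRR1B window held 2, which began 141 and 111 bases before it. Aligned to each other, these windows shared 209 of 282 aligned bases (74.1%). The MAL window had no AP-1 motif and 4 copies of GGGCGG, the GC box. Of the 42 genes, 31 matched a RefSeq window, and 11 of these 31 held the AP-1 motif, among them FLG, IVL, SCEL, SPRR3, EMP1 and CASP14. The windows of KLK10 and KLK13 did not hold it. Over windows, the motif was in 28.2% of 39 windows of these genes, beside 7.71% of all 35116 windows, and GGGCGG, read on both strands, was in 38.5% beside 45.0%. The CArG box, the motif of serum response factor, was found in the FLG window and in no other of the 31 genes, or 2.56% of their windows beside 1.29% of all. The grainyhead motif AACCNGTT was in no window of these genes, beside 1.73% of all. Windows held letters only, and no binding was measured.

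Of the remaining envelope precursors, 1 reached an unadjusted p under 0.05. Periplakin (PPL), a plakin at the desmosomal edge of the envelope, had signals of 5871, 7011 and 7865 on the parental arrays, 9307, 7263 and 5947 on the WT-actin arrays and 9604, 9139 and 10119 on the NLS-actin arrays. The NLS-actin arrays lay above all parental arrays, and WT-actin replicate 1 lay among them. The log2 fold changes of NLS-actin cells were 0.49 against the parental line (unadjusted p = 0.0135, adjusted p = 0.549 from limma) and 0.38 against WT-actin cells (unadjusted p = 0.0422, adjusted p = 0.503 from limma). Involucrin (IVL), the first scaffold of the envelope and chosen here for its role after its values were seen, ranged from 1086 to 3707 on the parental arrays, 834 to 3201 on the WT-actin arrays and 917 to 3628 on the NLS-actin arrays. These ranges nearly coincided, and the log2 fold changes of involucrin lay within 1 standard error of 0 in all 3 comparisons. Envoplakin (EVPL), the partner of periplakin, had NLS-actin signals from 804 to 1021, just above the parental ones from 579 to 800 (log2 fold change 0.30). LCE3D and CNFN were under the median level, and SCEL overlapped between all lines.

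Of the 3 suprabasal keratins, KRT1 varied most. Its signal was 62.1, 287 and 25.05 on the parental arrays, 197, 33.6 and 17.5 on the WT-actin arrays and 371, 3305 and 265 on the NLS-actin arrays. The NLS-actin arrays lay above all WT-actin arrays and overlapped with parental replicate 2, and in every line the array that stood apart was the highest. The log2 fold change between the actin lines was 3.82 (standard error 1.10, adjusted p = 0.198 from limma). It was called without the 3 arrays that stood apart (3.69, adjusted p = 0.0104), with the ACTB ratio as a covariate (3.14, adjusted p = 0.0354) and in the paired fit (3.82, adjusted p = 0.0268 from limma). Against the parental line the NLS-actin value was 3.17 (standard error 1.10, adjusted p = 0.551 from limma). KRT10 is the partner of KRT1 in the keratin filament. Its signal was 3315, 2782 and 2578 on the parental arrays, 4393, 3790 and 2514 on the WT-actin arrays and 2415, 2910 and 2142 on the NLS-actin arrays, which overlapped between all lines. Its log2 fold change between the actin lines was -0.49 (unadjusted p = 0.0342, adjusted p = 0.465 from limma). KRT13, a keratin of stratified mucosal epithelia named after its values were seen, had mean signals of 4559 ± 2884, 4442 ± 2841 and 4407 ± 3094 (SD, n = 3) in the parental, WT-actin and NLS-actin cells.

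TGM1, the membrane-bound transglutaminase that crosslinks the envelope, gave signals of 75.1, 240 and 56.5 on the parental arrays, 104, 14.2 and 26.4 on the WT-actin arrays and 144, 590 and 91.7 on the NLS-actin arrays. All lines overlapped, because WT-actin replicate 1 lay above NLS-actin replicate 3 and parental replicate 2 above 2 NLS-actin arrays. The log2 fold change between the actin lines was 2.55 (standard error 0.82, adjusted p = 0.268 from limma), and without the 3 arrays that stood apart it was 2.57 and was called (adjusted p = 0.0471 from limma). TGM3, the other transglutaminase of the group, did not exceed a signal of 11.1 on any array. The corneodesmosome genes were as dim, and none of the 3 had an unadjusted p under 0.05 in any comparison. CDSN, which encodes corneodesmosin and is described as the one with the brightest probe set, ranged from 5.96 to 15.2 on the parental arrays, 0.793 to 14.9 on the WT-actin arrays and 1.57 to 21.4 on the NLS-actin arrays. For DSG1 and DSC1, a desmosomal cadherin pair, no array exceeded 36.2.

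The kallikreins included 2 of the 5 called genes. KLK10 gave signals of 2971, 3913 and 3430 on the parental arrays, 1967, 2228 and 2392 on the WT-actin arrays and 3757, 4692 and 3955 on the NLS-actin arrays. The WT-actin arrays lay below all others, and the parental and NLS-actin arrays overlapped. Its log2 fold change was 0.91 between the actin lines (1.88 fold, standard error 0.15, adjusted p = 0.0164 from limma) and -0.64 for WT-actin against parental cells (standard error 0.15, unadjusted p = 0.00119, adjusted p = 0.223 from limma). KLK13 gave signals of 85.9, 144 and 83.8 on the parental arrays, 31.5, 49.2 and 21.9 on the WT-actin arrays and 148, 230 and 135 on the NLS-actin arrays. Here too the WT-actin arrays lay below all others. The log2 fold change was 2.36 between the actin lines (5.14 fold, standard error 0.41, adjusted p = 0.0204 from limma), its other 2 probe sets gave 1.35 and 2.29, and the value for WT-actin against parental cells was -1.64 (unadjusted p = 0.00171, adjusted p = 0.272 from limma). Both calls were at the edge of the threshold. That of KLK10 was lost without any 1 NLS-actin array or WT-actin replicate 1 or 2 (adjusted p = 0.0523 to 0.0772 from limma), that of KLK13 without any 1 NLS-actin array or WT-actin replicate 1 or 3 (adjusted p = 0.0562 to 0.0756 from limma), and both without the 3 arrays that stood apart (adjusted p = 0.071 from limma for each). Without those 3 arrays the log2 fold changes were 0.74 for KLK10 and 2.11 for KLK13.

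KLK11 and KLK8 lay in the same part of the kallikrein cluster of chromosome 19. KLK11 gave signals of 471, 814 and 259 on the parental arrays, 289, 203 and 55.6 on the WT-actin arrays and 469, 1341 and 339 on the NLS-actin arrays, and every NLS-actin array exceeded every WT-actin array. Its log2 fold change was 2.01 between the actin lines (unadjusted p = 0.00807, adjusted p = 0.25 from limma) and -1.64 for WT-actin against parental cells (unadjusted p = 0.0237, adjusted p = 0.66 from limma). KLK8, a serine protease of the upper epidermis, gave 1013, 1436 and 954 on the parental arrays, 890, 583 and 996 on the WT-actin arrays and 1255, 1664 and 1175 on the NLS-actin arrays. The actin lines again did not overlap, with a log2 fold change of 0.75 (unadjusted p = 0.0084, adjusted p = 0.256 from limma). KLK7, which cuts corneodesmosomes, had another pattern, with signals of 2118, 2414 and 1594 on the parental arrays, 2737, 3171 and 2021 on the WT-actin arrays and 2657, 2701 and 2890 on the NLS-actin arrays. Its NLS-actin arrays lay above all parental arrays (log2 fold change 0.45, unadjusted p = 0.0386, adjusted p = 0.731 from limma), and its WT-actin arrays overlapped with both. KLK5, the activator of other kallikreins, had log2 fold changes of -0.12 and -0.13 against the parental line in WT-actin and NLS-actin cells, and KLK6 had 0.41 and -0.00. In the order of the genes along the chromosome, the WT-actin values against the parental line were negative for KLK8, KLK10, KLK11 and KLK13 and ranged from -0.12 to 0.41 from KLK5 to KLK7. KLK12 and KLK14, which lie in the same cluster, are not among the 43 and were under the median level, had negative values in both lines, -1.78 and -0.65 in WT-actin and -0.92 and -0.85 in NLS-actin cells. KLK9 was not analysed here. CASP14, a caspase of the granular layer grouped with these proteases, did not exceed a signal of 17.5.

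**Figure D3:**
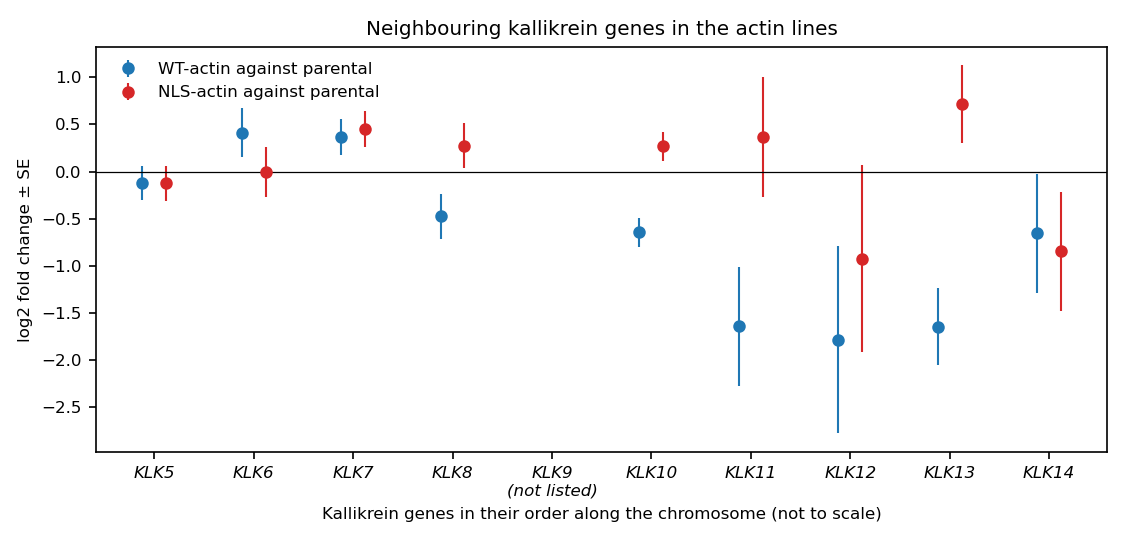
Log2 fold changes against the parental line (y axis, limma estimates from 3 arrays per line, bars are standard errors) of the kallikrein genes in their order along chromosome 19 (x axis, not to scale). For KLK8, KLK10, KLK11 and KLK13 the WT-actin values (blue) lie below 0, from -0.48 to -1.64, and the NLS-actin values (red) above 0, from 0.27 to 0.72, whereas both lie below 0 for KLK12 and KLK14.

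CSTA, or cystatin A, an envelope protein that also inhibits cysteine proteases, gave signals of 5725, 6855 and 7186 on the parental arrays, 10967, 7826 and 7455 on the WT-actin arrays and 8618, 8819 and 9675 on the NLS-actin arrays. The arrays of both actin lines lay above all parental arrays and overlapped with each other. The log2 fold changes against the parental line were 0.39 in WT-actin cells (unadjusted p = 0.029, adjusted p = 0.676), with a value of 0.46 in NLS-actin cells (unadjusted p = 0.0133, adjusted p = 0.549 from limma). This was unlike CST6, the other measured inhibitor, whose values against the parental line had opposite signs in the actin lines.

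Among the genes of barrier lipids, ABCA12, the lipid transporter of lamellar bodies, gave signals of 70.5, 90.3 and 87.0 on the parental arrays, 104, 65.6 and 60.5 on the WT-actin arrays and 177, 284 and 112 on the NLS-actin arrays. The NLS-actin arrays lay above all others. The log2 fold change was 1.11 against the parental line (unadjusted p = 0.0138, adjusted p = 0.552) and 1.26 against WT-actin cells (unadjusted p = 0.00699, adjusted p = 0.238 from limma). ALOX12B, the lipoxygenase that oxidizes linoleate of barrier ceramides, gave 20.3, 30.9 and 2.26 on the parental arrays, 42.1, 10.1 and 4.61 on the WT-actin arrays and 40.1, 378 and 70.1 on the NLS-actin arrays. The NLS-actin arrays lay above all parental arrays, and WT-actin replicate 1 overlapped with them. The log2 fold changes were 3.18 against the parental line (unadjusted p = 0.0152, adjusted p = 0.574) and 3.03 against WT-actin cells (unadjusted p = 0.0197, adjusted p = 0.374 from limma). ALOX15B stayed between 5.38 and 44.8 on all arrays and overlapped between the lines.

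By its representative probe set, none of the 6 regulators of the program had an unadjusted p under 0.05 in limma or Tukey's test in any comparison. GRHL1, a grainyhead factor that controls desmosomal genes, and KLF4, a zinc finger factor of barrier formation, were at or above the median level, as were GRHL3 and OVOL1. KLF4, whose probe set was the brightest of the group, gave 813, 713 and 857 on the parental arrays, 609, 712 and 739 on the WT-actin arrays and 954, 694 and 1036 on the NLS-actin arrays. All lines overlapped, and the log2 fold changes were -0.21 for WT-actin and 0.15 for NLS-actin against parental cells and 0.37 between the actin lines. The log2 fold changes of the 6 regulators ranged from -0.39 to 0.18 for NLS-actin against parental cells, from -0.40 to 0.24 for WT-actin against parental cells and from -0.42 to 0.58 between the actin lines. ZNF750 and PRDM1 were under the median level. The probe sets of PRDM1 disagreed in NLS-actin against parental cells, with a log2 fold change of -0.17 for the representative and 1.83 for another (limma, unadjusted p = 0.0126, and 0.614 when adjusted for every probe set), chosen after its values were seen. Its signals were at most 36.7 on the parental and 48.6, 58.6 and 48.4 on the NLS-actin arrays. Of the other differentiation products, KRTDAP, a secreted peptide of suprabasal cells, gave signals of 39.1, 59.6 and 33.4 on the parental arrays, 32.8, 16.6 and 40.4 on the WT-actin arrays and 64.2, 77.2 and 41.4 on the NLS-actin arrays. The actin lines did not overlap, though the lowest NLS-actin array was only just above the highest WT-actin array, and the log2 fold change was 1.07 (unadjusted p = 0.0484, adjusted p = 0.524 from limma). EMP1, an epithelial membrane protein, had log2 fold changes of 0.23 and 0.23 in NLS-actin and WT-actin cells against the parental line, while a dimmer probe set of EMP1 gave -0.73 and -1.0, and CALML5 and SBSN did not exceed a signal of 33.6 on any array.

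Parental and NLS-actin arrays of the same replicate number deviated together most clearly in replicate 2 (correlation 0.79), beside 0.233 and 0.416 in replicates 1 and 3. They were taken as pairs on this ground, though the labels do not say what a number marks. The differences were therefore also read within numbers. A fit of those 6 arrays alone with the number as a block, chosen after the data were seen, called 8 of the 42 genes, 7 higher and 1 lower in NLS-actin cells, against 1.91% of all genes. KRT1 differed by 2.58, 3.53 and 3.40 on the log2 scale in replicates 1, 2 and 3 (adjusted p = 1.47e-05 from limma). With arrays paired by number the differences were thus alike, although the levels of KRT1 on those arrays were not. A fit with replicates 1 and 3 crossed was not run. MAL differed by 2.12, 3.18 and 2.17 (adjusted p = 0.000231 from limma) and SPRR1B by 0.78, 1.46 and 0.99 (adjusted p = 0.003 from limma). FLG, or filaggrin, which bundles keratin filaments, differed by 0.77, 1.02 and 0.83 (adjusted p = 0.00204 from limma), while its signals of 2202, 822 and 1970 on the parental and 3756, 1665 and 3509 on the NLS-actin arrays overlapped. The others were SPRR1A (adjusted p = 0.0215), ALOX12B (adjusted p = 0.0223), CST6 (lower, adjusted p = 0.0368) and PPL (adjusted p = 0.0497 from limma). In the paired fit of all 9 arrays, whose variance included the WT-actin arrays, 1 of the 42, MAL, was called. The pairing of replicates 1 and 3 was not settled by the data. Parental replicate 3 correlated more with NLS-actin replicate 1 (0.534) than with NLS-actin replicate 3 (0.416). Parental replicate 1 correlated more with NLS-actin replicate 3 (0.335) than with NLS-actin replicate 1 (0.233). Both fits rest on a pairing chosen from the deviations of these same arrays, so that their calls are no independent support.

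**Figure D4:**
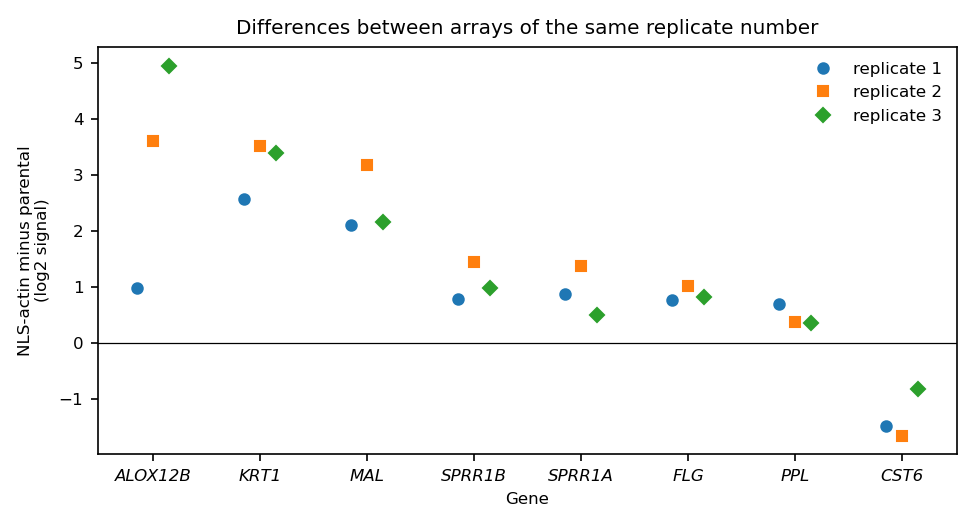
Log2 signal of the NLS-actin array minus that of the parental array with the same replicate number (y axis), for the 8 genes called with the block in the 6 arrays. Each point is 1 pair of arrays. All 3 differences are positive for 7 genes and negative for CST6, and those of ALOX12B spread from 0.98 to 4.96.

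The spread of the 42 genes between arrays of the same line was wide. The median SD within lines was 0.35 on the log2 scale for the 22 genes at or above the median level, beside 0.24 for all genes at or above it, and it reached 1.05 for KLK11. Among these 22 genes, KRT13 and IVL were next at 0.97 each, and KLK10 was the steadiest at 0.17. The arrays that stood apart in the parental, WT-actin and NLS-actin cells were the highest of their line for 30, 18 and 30 of the 42 genes, beside 40.2%, 41.2% and 44.0% of all genes. All 3 were the highest for 14 of the 42 genes (33.3%), beside 15.5% of all genes, and for 6 of the 22 brighter genes (27.3%), beside 17.6% of all brighter genes. These 6 were KRT13, IVL, SCEL, EVPL, KLK11 and GRHL3. KRT13 was 1.45, 1.45 and 1.61 higher on the log2 scale on those arrays than on the other arrays of the parental, WT-actin and NLS-actin cells, and IVL was 1.27, 1.42 and 1.75 higher. FLG, CST6, KLF4 and KLK6 went the other way and were lowest on all 3, a share of 9.52% of the 42 genes beside 9.20% of all genes. FLG was lower by 1.34, 0.93 and 1.12 and CST6 by 0.77, 1.24 and 1.27. Within each line the ACTB ratio was highest on the array that stood apart, and its part in this spread was not tested.

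**Figure D5:**
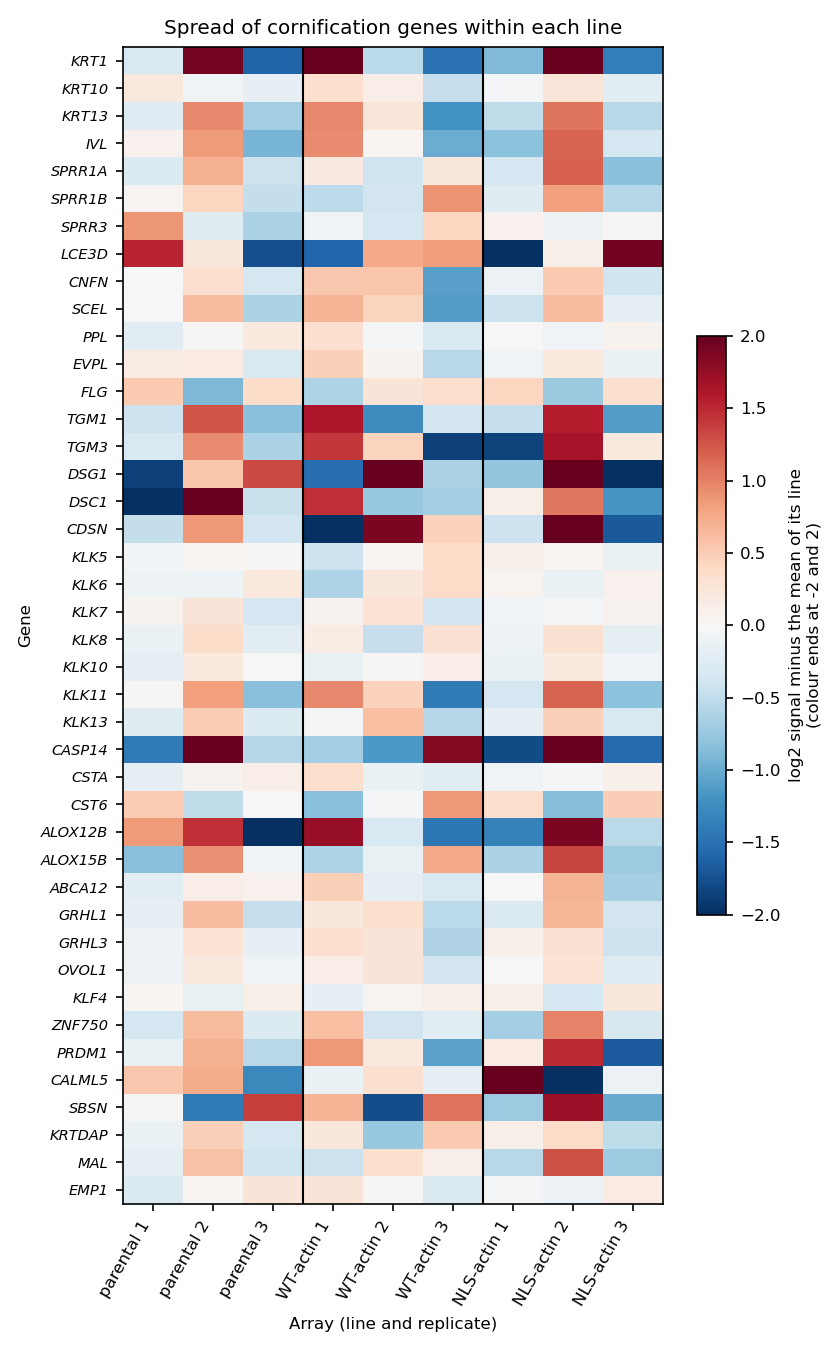
Log2 signal of each of the 42 genes (rows) on each of the 9 arrays (columns) minus the mean of that gene in its line, as colour from -2 (blue) to 2 (red). The columns of replicate 2 in the parental and NLS-actin cells are red for most genes and that of WT-actin replicate 1 for many, KRT13 and IVL among them, and all 3 columns are blue for FLG and CST6.

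A list of 80 further cornification genes, of which 54 had a probe set, gave 0 calls in limma in every comparison. At an unadjusted p under 0.05, 6 of the 54 differed in NLS-actin against parental cells (6.44% of all genes), 1 higher and 5 lower. In WT-actin against parental cells 9 differed (6.69% of all genes), 2 higher and 7 lower, and in NLS-actin against WT-actin cells 11 differed (9.47% of all genes), 7 higher and 4 lower. Tukey's test gave 3, 5 and 5 of them at an unadjusted p under 0.05 (3.7%, 3.74% and 5.27% of all genes) and none after adjustment. Their median log2 fold changes were 0.18, -0.16 and 0.55 in the 3 comparisons. The smallest p-values of the list in NLS-actin against parental cells belonged to lower genes. BLMH, the bleomycin hydrolase that degrades filaggrin, gave 534, 602 and 489 on the parental arrays, 270, 422 and 432 on the WT-actin arrays and 204, 305 and 194 on the NLS-actin arrays, a log2 fold change of -1.23 against the parental line (unadjusted p = 0.000436, adjusted p = 0.141 from limma) with no overlap. KRT9, a keratin of palms and soles, gave 637, 647 and 627 on the parental arrays and 406, 352 and 342 on the NLS-actin arrays, also with no overlap (log2 fold change -0.80, adjusted p = 0.175 from limma). KRT23 had a log2 fold change of -1.83 (adjusted p = 0.281) and CYP4F22, an acylceramide enzyme, of -2.27 (adjusted p = 0.623 from limma). Between the actin lines the smallest p of the list was that of ECM1, an extracellular matrix protein of differentiating epidermis named after its values were seen, with a log2 fold change of 1.95 (adjusted p = 0.0605 from limma). With the block in the 6 parental and NLS-actin arrays, BLMH, DMKN and KRT9 were called lower and ECM1 and KRT77 higher, against 1.91% of all genes.

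Markers of the keratinocyte state and of other cells were read beside these genes. Of 10 basal keratinocyte markers 7 were measured, none was called in limma in any comparison, and their summed signal was 34081 to 45395 on the parental arrays, 40962 to 55529 on the WT-actin arrays and 44370 to 52325 on the NLS-actin arrays. At an unadjusted p under 0.05 limma gave 1 of them, KRT5, higher in NLS-actin than in parental cells (log2 fold change 0.44, 6.44% of all genes), and Tukey's test gave 0. All 7 had positive log2 fold changes against the parental line in both actin lines. The arrays of 3 lay above all parental arrays in NLS-actin cells (13.9% of all genes did not overlap) and of 0 in WT-actin cells (12.3%). The 8 cell cycle markers and the 4 markers of simple epithelia had no call either. At an unadjusted p under 0.05 limma gave 1 of these 12, a simple epithelial marker in WT-actin against parental cells, and Tukey's test gave 0. The summed signals of the 4 melanocyte markers measured did not exceed 76.0 and those of the 4 leukocyte markers 193, and each of these markers was under the median level, as were 5 of 6 fibroblast markers. At an unadjusted p under 0.05 limma and Tukey's test each gave 2 fibroblast markers between the actin lines, COL1A2 (log2 fold change 2.5, unadjusted p = 0.007, adjusted p = 0.238 from limma) and PDGFRB (1.40, unadjusted p = 0.0454, adjusted p = 0.516 from limma). Their NLS-actin arrays lay above all WT-actin arrays, no signal of either exceeded 26.1, and both were named after their values were seen. Of the 4 leukocyte markers, CD14 was called higher in NLS-actin than in WT-actin cells (log2 fold change 2.53, adjusted p = 0.0437 from limma), against 0.728% of all genes. The signals of CD14 were 76.2, 119 and 35.6 on the parental, 13.8, 25.3 and 16.6 on the WT-actin and 94.0, 140 and 84.9 on the NLS-actin arrays. In that comparison 3 of the 4 had a positive value, and the general leukocyte marker PTPRC had a negative one (-1.56, unadjusted p = 0.184 from limma). The part of all these markers in the differences of the cornification genes was not tested.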

How the data were processed

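Parental HaCaT cells and the lines with WT-actin or NLS-actin were each profiled on 3 Affymetrix arrays. Linear intensities made with MAS5 were deposited by the authors, and its version is not given in the sources used here. Signals were taken to log2 with no offset and no filter. Of 54613 probe sets other than controls, 41091 carried 1 gene symbol, and these were updated through Entrez identifiers for 41037. Those with several symbols (1801) or without any (11721) were given to no gene. Each of 19775 genes was represented by the probe set with the highest mean log2 signal. The comparisons used limma 3.58.1 (R 4.3.3) and a fit of all 9 arrays with 1 mean per line, a variance that followed the signal level, and Benjamini-Hochberg adjustment over all genes in each of 3 comparisons. The arrays' number limits the precision, and with 3 arrays against 3 the smallest p of an exact permutation test is 0.1. The study's statistics section names Tukey's test after one-way ANOVA, while its array methods give a p-value and a fold cut-off and name no test. Tukey's test was run here as an alternative.

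The members and gene lists, and the omission of 3 arrays, were chosen with earlier results of these data known. Members with an unadjusted p under 0.05, or an adjusted p under 0.05 with the replicate block, were described array by array, with the brightest member of any other role. IVL, KRT13, FLG, EVPL, KLK5, KLK6, EMP1, ECM1, KRT5, CD14, PTPRC, COL1A2, PDGFRB, and KLK12 and KLK14 as neighbours, were named after their values were seen. Of the further list, the 4 genes with the smallest p in NLS-actin against parental cells were named. The labels number the arrays 1 to 3 and do not say what a number marks. Arrays of the same number had residual correlations of 0.233, 0.79 and 0.416 between the parental and NLS-actin cells, and the numbers were taken to pair these. Crossed arrays correlated more, with 0.335 for parental replicate 1 and NLS-actin replicate 3 and 0.534 for parental replicate 3 and NLS-actin replicate 1. In pairs with WT-actin arrays, which were not paired, the correlations at the same number were -0.596 to 0.515. Alternatives were an offset of 8.08, quantile normalization, omission of dim genes, of cross-hybridizing probe sets and of each array, the mean of all probe sets, a fit of 2 lines, no intensity trend, the ACTB ratio as a covariate and replicate blocks. The fit was tested on simulated data. Promoter windows came from RefSeq (GRCh38.p14). Python 3.11.15 with pandas 2.3.3 and matplotlib 3.10.9 was used for tables and plots.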

Additional observations from a re-analysis of the deposited data

How the results depend on the processing

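Of the 42 genes, the 5 called between NLS-actin and WT-actin cells became 0 with Tukey's test or without the intensity trend. In all, 17 and 76 genes were called there. A fit of the NLS-actin and WT-actin arrays only called 2 of the 42 (67 genes in all). Averaging the probe sets of each gene called 3 (82 in all). With dim genes left out, MAL and KLK13 were not tested. The other 3, CST6, KLK10 and SPRR1B, stayed called (84 genes in all). Leaving out 1 array at a time gave 2 to 5 calls. There were 2 without NLS-actin replicate 1 (66 genes in all) or WT-actin replicate 1 (105 in all). There were 3 without NLS-actin replicate 2 (124 in all) or 3 (70 in all) or WT-actin replicate 2 (75 in all). Without WT-actin replicate 3 there were 4 (107 in all), and without any 1 parental array 5 (97 to 114 in all). MAL passed under 18 of 20 alternatives, CST6 under 18 of 21, SPRR1B under 14 of 21, KLK10 under 12 of 21 and KLK13 under 10 of 20, and CST6 was lost when its probe sets were averaged (-2.45, adjusted p = 0.215 from limma). In NLS-actin against parental cells, where 0 were called, the replicate block over all 9 arrays called 1 (19 genes in all). The block that pairs only parental with NLS-actin arrays also called 1 (27 in all). The block in those 6 arrays alone, chosen after the data were seen, called 8 (378 in all). In WT-actin against parental cells, where 0 were called, 1 was called without the 3 arrays that stood apart (41 genes in all). With the ACTB ratio as a covariate 1 was called as well (84 in all). KLK11 was called between the actin lines with the replicate block over all 9 arrays (adjusted p = 0.0246 from limma). The medians of the 42 genes ranged from 0.28 to 0.82 between the actin lines, from -0.01 to 0.37 for NLS-actin and from -0.57 to -0.09 for WT-actin against parental cells. The median deviation of the 42 genes on a single array had an SD of 0.39 within lines. The reported medians of 0.17 and -0.32 against the parental line were smaller in size, and that of 0.55 between the actin lines was larger. These medians compare means of 3 arrays, so that the SD of single arrays is not their standard error. Leaving out 1 array moves the mean of its line by only part of its deviation, so that the ranges of the medians do not measure robustness. Of 703 values of single genes over 34 pairs of a gene and a comparison, 654 kept their direction and side of the threshold, 31 fell short of it, 18 newly passed and none changed sign. Most of the 654 were values that were not called and stayed so. Only the 5 called pairs could fall short, and all 31 belong to them. The pairs were chosen for a small p in these data, so that the kept signs say little about stability. The causes of these differences were not tested. Of the 42 genes, 20 lay under the median level, where the median SD within lines was 1.41 on the log2 scale.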
